A study of Mus musculus with 18 samples.

Results

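Risperidone, an antipsychotic that blocks dopamine D2 and serotonin 2A receptors, was set against vehicle in microglia taken from mouse frontal cortex. The comparison rested on 4 of the 18 libraries of the series, 2 of risperidone-treated and 2 of vehicle-treated microglia, chosen by their labels for cell fraction, drug and batch. All mice carried the S100B-EGFP reporter transgene (B6;D2-Tg(S100B-EGFP)1Wjt/J), vehicle-treated animals included, and the labels name no other allele. Mice received risperidone at 1 mg/kg or vehicle into the peritoneum each day from postnatal day 60 to 74, 14 days by the series description, and were killed on postnatal day 75. Clozapine at 10 mg/kg was given to a further group on the same schedule, and its 2 microglia libraries entered the model as described below. Each library came from the pooled cortices of 5 animals, so a value averages 5 brains and does not show how single animals varied. The labels describe the animals as male in one place and as both sexes in another.

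Microglia are the resident macrophages of the brain. They watch over synapses and clear debris, and they are known for a homeostatic gene programme (P2ry12, Tmem119, Cx3cr1), for interferon-stimulated genes that switch on after type I interferon, and for immediate-early genes that are readily induced while tissue is taken apart. Risperidone is known for receptors that are mostly neuronal, and the series set out to compare how cortical cell types respond to clozapine and risperidone.

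The risperidone libraries held 5283809 and 6257095 assigned counts in batch 1 and batch 2, against 7009289 and 8166085 in the vehicle libraries. Throughout, values of a group are given in the order batch 1, batch 2, in CPM. CPM is the gene's count relative to its library's total after scaling by TMM factors, which were set within each fraction. On this scale 1 gene can be compared between libraries of a fraction, only roughly between fractions, and not with another gene. The sensory receptor sum below is the exception and has no TMM factors. Cells had been captured with an antibody to CD45, a surface protein of blood-derived and microglial cells. The sum over 20 microglia markers was 9700 and 8860 CPM with risperidone and 15100 and 7560 CPM with vehicle, against 177 to 1780 CPM in the astrocyte and neuron libraries, and all 20 were detected in each of the 4 microglia libraries. Other cell types contributed RNA: 19 pan-neuronal markers summed to 2110 and 3520 CPM with risperidone and 2840 and 5590 CPM with vehicle. Erythrocyte genes summed to 6280 and 1330 CPM with risperidone and 15900 and 1700 CPM with vehicle. Xist, the RNA of the inactive X chromosome, and RNA of Y-linked genes were detected in all 4 pools. In pooled tissue fractions, fewer cells of a type and less RNA per cell cannot be told apart.

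Vehicle batch 1 was the highest library for microglia, border macrophage and erythrocyte genes, whereas vehicle batch 2 was the highest for pan-neuronal markers. Border macrophage markers, of the macrophages along vessels and meninges, summed to 222 and 167 CPM with risperidone and to 634 and 135 CPM with vehicle. Sensory receptor genes, which brain microglia are not known to use, summed to 4270 and 4660 CPM with risperidone against 2810 and 2290 CPM with vehicle. This sum is relative to the library total alone, without TMM factors. These receptors are taken here as a measure of low-level background, and the groups did not overlap on it.

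No gene was called for risperidone against vehicle. edgeR's quasi-likelihood test with batch as a block, adjusted by Benjamini-Hochberg over 32846 genes, gave 0 calls at an adjusted p under 0.05 (percent called 0), with a smallest adjusted p of 0.112. At an unadjusted p under 0.05 there were 2704 genes, 8.23% of those tested. Of these, 1224 read higher in both batches (3.73% of genes tested) and 1438 read lower in both (4.38%). Without regard to p, 30% of genes tested read higher in both batches and 26.8% lower, and the groups did not overlap in 21.4% (higher) and 15.3% (lower). Differences of at least 2-fold in both batches were found in 4.2% (higher) and 0.743% (lower), or 0.425% and 0.271% of genes with a mean of at least 5 CPM. DESeq2 with the same model called 43 genes, 42 lower and 1 higher, and all 43 were among the genes of unadjusted p under 0.05 and like direction in edgeR. DESeq2's filter on the mean gave an adjusted p to 2916 of the 32846 genes, none with a mean under 38.5 CPM. Of the genes at an unadjusted edgeR p under 0.05 and like direction it could call 28 of the 1224 higher and 400 of the 1438 lower, so its split of directions rests mostly on abundant genes that read lower. The genes below are therefore described by their values, and "higher" or "lower" refers to the 4 libraries.

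Direction depended on how abundant a gene was. Genes under 1 CPM had a median log2 difference of 0.23 in batch 1 and 0.89 in batch 2, whereas genes of 100 CPM and over had −0.16 and −0.24. Among the 16951 genes with a mean of at least 5 CPM the median of the fit was −0.13, 461 genes (2.72%) read higher in both batches at an unadjusted p under 0.05 and 1282 (7.56%) read lower. Counted by the sign of the fit alone these were 472 higher and 1307 lower. They became 368 higher and 621 lower without risperidone replicate 2, and 260 higher and 333 lower with no replicate block. The split also followed the scaling. At an unadjusted p under 0.05, 1239 genes were higher and 1465 lower, and with TMM factors taken from genes of at least 5 CPM, a setting added after values were seen, 1753 were higher and 858 lower. The median of those abundant genes was then −0.01. A list median is therefore read against −0.13, and differences near it carry no direction.

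**Figure D1:**
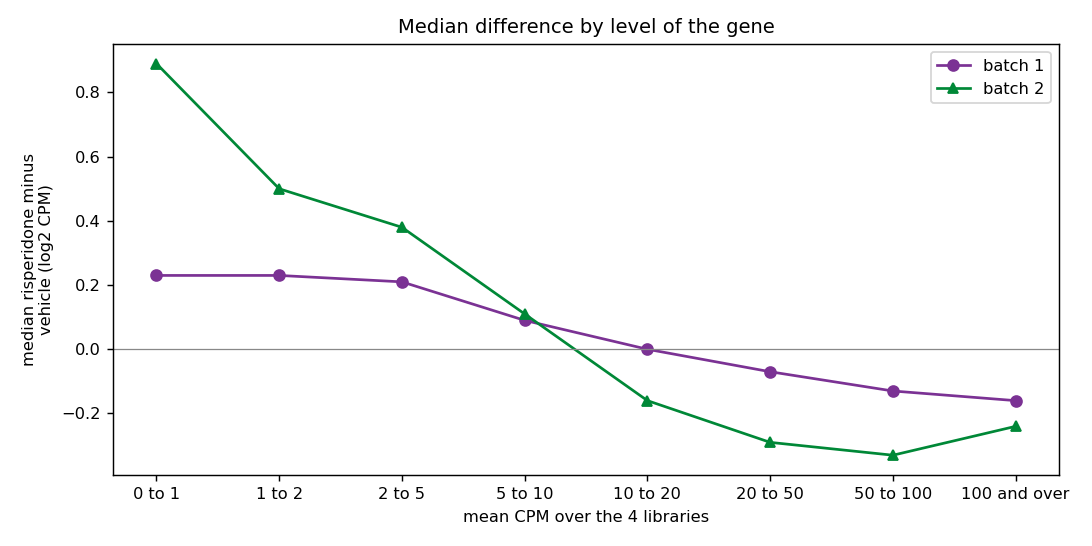
Median within-batch difference, risperidone minus vehicle in log2 CPM, of genes binned by mean CPM over the 4 libraries, with purple circles for batch 1 and green triangles for batch 2. In both batches the median passes from above 0 at low levels to below 0 at high levels.

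Interferon-stimulated genes had the highest median of the lists examined. Of 38 tested, 26 read higher in both batches and 4 lower in both, against 18.9% and 38.2% of all genes of at least 5 CPM. The groups did not overlap in 9 higher and 2 lower members, against 11.9% and 21.5% of genes of at least 5 CPM. Their median difference was 0.46 (0.28 in batch 1 and 0.54 in batch 2). An unadjusted p under 0.05 was reached by 9, all higher, and none was called by edgeR. Of all genes of at least 5 CPM, 2.72% read higher in both batches at that p and 7.56% lower. With the scaling from abundant genes 27 read higher in both batches, and leaving out vehicle replicate 2 lowered the median to 0.24. The leading members were Oasl1, an inhibitor of Irf7 translation in mice, Ifit1 and Ifit2, which bind viral RNA, Ifih1, the cytosolic RNA sensor MDA5, and Rsad2, the antiviral enzyme viperin.

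Oasl1 (ENSMUSG00000041827.16, chromosome 5, 115061299 to 115075974, GRCm39) stood at 374 and 62.9 CPM with risperidone and at 141 and 30.9 CPM with vehicle. Risperidone was the higher library within each batch, but batch 1 was so much higher than batch 2 that the groups overlapped. The difference was 1.25 (SE 0.28, 95% interval 0.67 to 1.82) with an edgeR adjusted p of 0.336, and Oasl1 was the 1 gene that DESeq2 called higher, at an adjusted p of 0.0183. Without risperidone replicate 1 the difference was 0.71.

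Ifit1 stood at 137 and 13.2 CPM with risperidone and at 60.1 and 3.87 CPM with vehicle, a difference of 1.32 (SE 0.37). Ifih1 stood at 466 and 96.8 CPM with risperidone and at 217 and 60.2 CPM with vehicle (0.92, SE 0.27). Rsad2 stood at 114 and 19.5 CPM with risperidone and at 54.9 and 11.4 CPM with vehicle (0.93, SE 0.27). All 3 repeated the pattern of Oasl1, with higher values in batch 1, overlapping groups and risperidone above vehicle inside each batch. Their edgeR adjusted p was between 0.453 and 0.471. The clozapine microglia libraries also lay above vehicle inside each batch for Oasl1 and these 3. With clozapine Oasl1 stood at 342 and 157 CPM, Ifit1 at 128 and 48.8 CPM and Ifih1 at 390 and 205 CPM. Without risperidone replicate 1 the differences were 0.74 for Ifit1, 0.43 for Ifih1 and 0.54 for Rsad2, and that of Ifit1 was 2.38 without vehicle replicate 1 and 0.79 without vehicle replicate 2. Ifit2 differed by 1.14 (SE 0.34), and by 0.54 without risperidone replicate 1. Mx2, an antiviral GTPase, was 1 of the members whose groups did not overlap. It stood at 14.8 and 12.2 CPM with risperidone and at 9.59 and 4.62 CPM with vehicle (0.98, SE 0.37), and differed by 0.58 without vehicle replicate 2. Stat2, a subunit of the transcription factor that drives these genes, read lower at 23.8 and 19.5 CPM with risperidone and 31.3 and 30.1 CPM with vehicle.

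Promoter windows of 3 of these genes are shown because members of the list moved together. They are the 250 bases before the RefSeq start on GRCm38.p6, 5′ to 3′ on the gene's strand, with the core of the interferon-stimulated response element in capitals. The core searched was GAAA, any 2 bases and GAAA again, on either strand, and overlapping matches were allowed. The first lies on chromosome 19 (34640639 to 34640888, plus strand), the next on chromosome 12 (26456453 to 26456702, minus strand) and the last on chromosome 5 (114922990 to 114923239, plus strand).
Ifit1: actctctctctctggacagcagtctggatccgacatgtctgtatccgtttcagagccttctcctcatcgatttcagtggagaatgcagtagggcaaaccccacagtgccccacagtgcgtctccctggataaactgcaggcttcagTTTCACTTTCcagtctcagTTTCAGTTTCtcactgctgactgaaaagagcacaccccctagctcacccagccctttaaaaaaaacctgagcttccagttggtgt
Rsad2: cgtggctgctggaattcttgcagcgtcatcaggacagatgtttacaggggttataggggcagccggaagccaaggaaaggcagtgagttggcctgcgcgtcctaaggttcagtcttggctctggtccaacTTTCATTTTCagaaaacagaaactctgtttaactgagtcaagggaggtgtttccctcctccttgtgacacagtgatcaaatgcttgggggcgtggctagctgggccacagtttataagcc
Oasl1: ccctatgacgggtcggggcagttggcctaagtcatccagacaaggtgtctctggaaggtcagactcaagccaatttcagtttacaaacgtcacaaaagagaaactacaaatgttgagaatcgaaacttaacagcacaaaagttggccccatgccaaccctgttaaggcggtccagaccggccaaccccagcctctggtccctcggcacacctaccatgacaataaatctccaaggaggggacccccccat
The motif occurred 2 times in the Ifit1 window, once in that of Rsad2 and not in that of Oasl1. It was present in 14 of the 27 list members with a promoter in the table, 8 of the 17 that read higher in both batches and 6 of the other 10, against 3.04% of all 27025 promoters.

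Chemokine and antigen-presentation genes accompanied the interferon genes in part. Ccl5, a chemokine for T cells, stood at 784 and 163 CPM with risperidone and at 280 and 81.2 CPM with vehicle (1.29, SE 0.30), again with overlap between batches and risperidone higher inside each, and 0.63 without risperidone replicate 1. Nlrc5, the transactivator of MHC class I genes, stood at 33.4 and 32.5 CPM with risperidone and at 17.6 and 11.9 CPM with vehicle (1.20, SE 0.30). Nlrc5 did not overlap between groups. The MHC class I list itself had 4 of 16 members higher and 2 lower in both batches (median 0.06). Among 28 cytokine and chemokine genes 9 read higher in both batches and 3 lower (median 0.08), and only Ccl5 and Tnfsf9 had an unadjusted p under 0.05. That threshold was passed by 8.23% of all genes tested and by 10.5% of those of at least 5 CPM. Tnfsf9, the ligand 4-1BBL, was lower at 12.6 and 5.98 CPM with risperidone and 25.2 and 11.9 CPM with vehicle. Of 15 NF-kB subunits and inhibitors 8 read lower in both batches and 5 higher (median −0.14), and with the scaling from abundant genes 2 read lower and 5 higher, so the list had no direction that held under both scalings.

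**Figure D2:**
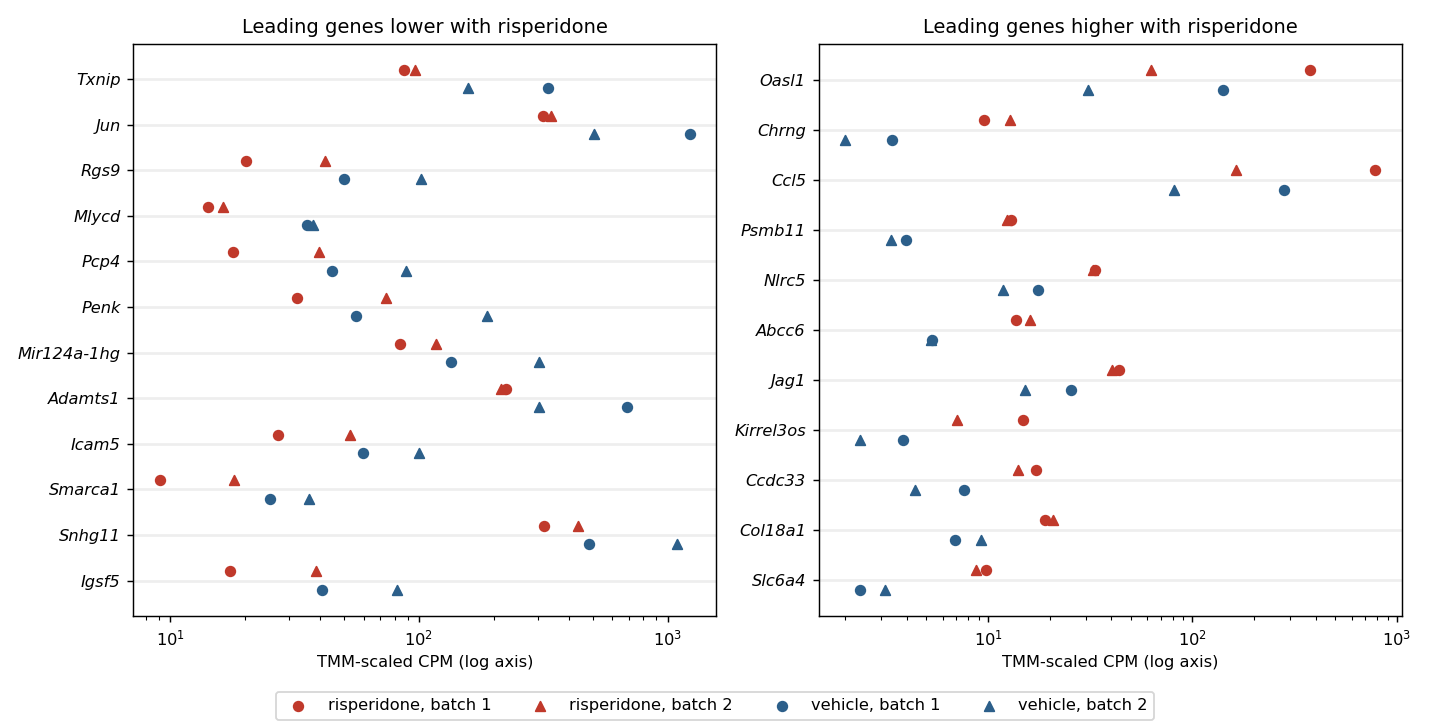
TMM-scaled CPM (log axis) in each of the 4 libraries for the leading genes lower (left) and higher (right) with risperidone, in order of unadjusted p from the top (11 of the 12 leading higher genes are drawn). Red symbols are risperidone and blue symbols vehicle, circles batch 1 and triangles batch 2; in the left panel the red pair lies left of the blue pair with no overlap except for Penk, and in the right panel right of it except for Oasl1 and Ccl5.

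Among genes that read lower, Txnip led those with a known role. It encodes an arrestin-like brake on glucose uptake and a partner of thioredoxin. Txnip (ENSMUSG00000038393.15, chromosome 3, 96465273 to 96469199, GRCm39) stood at 87 and 96 CPM with risperidone and at 329 and 157 CPM with vehicle. Both risperidone libraries lay below both vehicle libraries. The difference was −1.36 (SE 0.28, 95% interval −1.93 to −0.79; batch 1 −1.91, batch 2 −0.71), and the adjusted p was 0.273 in edgeR, while DESeq2 called Txnip at 0.0044. Without vehicle replicate 1 the difference was −0.73.

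Mlycd, the mitochondrial enzyme that degrades malonyl-CoA, was alike in both batches. It stood at 14.2 and 16.3 CPM with risperidone and at 35.4 and 37.4 CPM with vehicle (−1.26, SE 0.28; −1.30 and −1.19 within batches). Its difference lay between −1.32 and −1.22 with each library of the model left out in turn, although its edgeR adjusted p was 0.336.

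Among 32 glucose uptake and glycolysis genes 16 (50%) read lower in both batches and 2 higher (median −0.26), against 38.2% and 18.9% of all genes of at least 5 CPM. With the scaling from abundant genes 11 were lower and 3 higher, against 27.8% and 27.4%, so the share lower was close to that of all such genes. Slc2a3, the glucose transporter GLUT3, stood at 23.1 and 48.8 CPM with risperidone and at 40.6 and 75.9 CPM with vehicle (−0.72, SE 0.25). It stood between 54 and 104 CPM in the neuron libraries, a range that overlapped its vehicle values in microglia. It moved with the pan-neuronal markers described below, and their part in its difference was not tested. The glycolytic enzyme gene Tpi1 stood at 49.5 and 65.8 CPM with risperidone and at 85.7 and 104 CPM with vehicle (−0.73, SE 0.24), and its groups did not overlap. Of 21 insulin and FoxO pathway genes 14 read lower in both batches and 1 higher, and 10 and 5 with the scaling from abundant genes; the insulin receptor gene Insr was among the lower (−0.50, SE 0.24). Lipid genes were mixed. Plin2, the lipid droplet coat protein, was higher at 161 and 131 CPM with risperidone and 118 and 77.6 CPM with vehicle, while of 26 sterol synthesis genes 4 read higher and 6 lower in both batches.

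Immediate-early genes, the fast transcription factors of the AP-1 and related families, read lower with factors from all genes tested, mostly through batch 1. Of 32 tested, 18 were lower in both batches (56.2%) and 2 higher (6.25%). The shares were 38.2% and 18.9% among all genes of at least 5 CPM. Their median was −0.40 (−0.48 in batch 1 and −0.16 in batch 2). With the scaling from abundant genes 11 were lower and 5 higher, against 27.8% and 27.4% of all such genes. The share lower was then close to that of all such genes. Jun (ENSMUSG00000052684.5, chromosome 4, 94937271 to 94940459, GRCm39) stood at 316 and 341 CPM with risperidone and at 1230 and 505 CPM with vehicle. Fos stood at 197 and 210 CPM with risperidone and at 686 and 247 CPM with vehicle. Fosb stood at 207 and 209 CPM with risperidone and at 667 and 241 CPM with vehicle. In all 3 the risperidone libraries were close together and vehicle batch 1 was far above the other 3 libraries. The differences were −1.32 (SE 0.28) for Jun, −1.11 (SE 0.31) for Fos and −1.06 (SE 0.32) for Fosb, with edgeR adjusted p between 0.309 and 0.488. Without vehicle replicate 1 they were −0.62, −0.21 and −0.09. Klf2, a Krüppel-like transcription factor, differed in sign between the batches, at 24 and 107 CPM with risperidone and 205 and 99 CPM with vehicle.

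**Figure D3:**
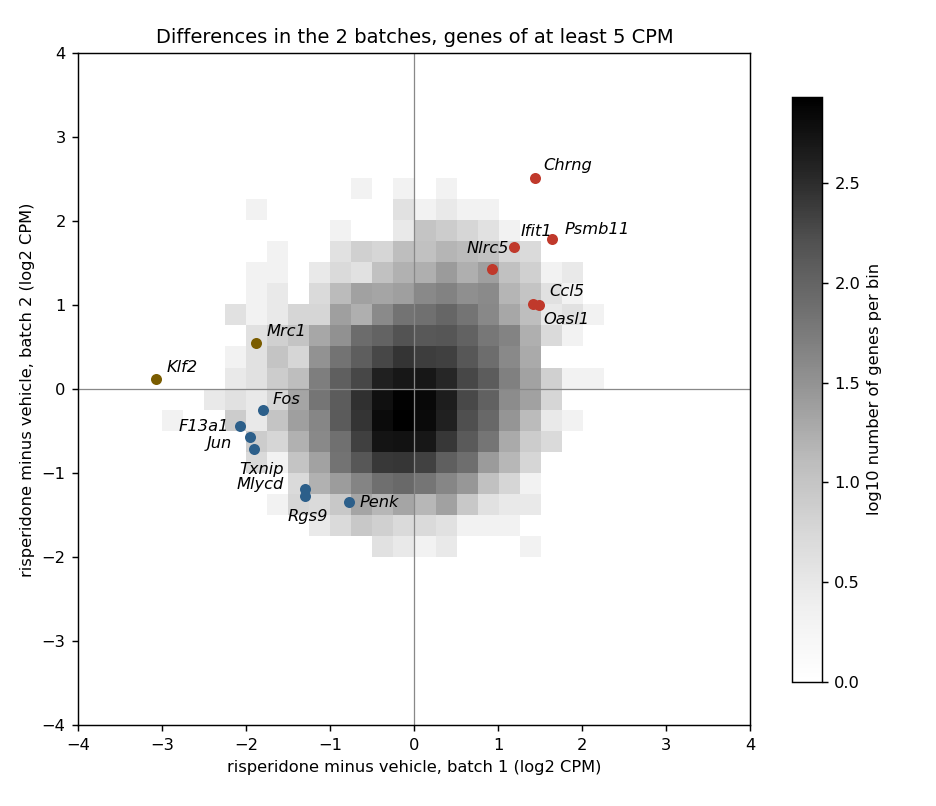
Risperidone minus vehicle in log2 CPM in batch 1 (horizontal) and batch 2 (vertical) for the 16951 genes of at least 5 CPM, shaded by the log10 number of genes per bin, with named genes higher in both batches in red, lower in both in blue and of opposite sign in brown. Mlycd and Rgs9 lie near the diagonal, Fos and F13a1 far out mainly in batch 1, and Klf2 and Mrc1 across the zero line.

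Adamts1, a secreted protease, and Rgs2, a brake on Gq signalling, followed the same library. Adamts1 stood at 225 and 214 CPM with risperidone and at 684 and 304 CPM with vehicle (−1.08, SE 0.26), and DESeq2 called it at 0.0161. Rgs2, singled out after values were seen, stood at 75.1 and 74.8 CPM with risperidone and at 230 and 102 CPM with vehicle, and DESeq2 called it at 0.0404. Without vehicle replicate 1 the edgeR differences were −0.58 for Adamts1 and −0.44 for Rgs2. Among 18 MAP kinase feedback genes, which these pathways induce, 10 read lower in both batches and 3 higher, and 5 and 6 with the scaling from abundant genes. Their median, −0.13, equalled that of all genes of at least 5 CPM. Dusp6 differed by −0.98 (SE 0.32), and by −0.20 without vehicle replicate 1. Dusp5 differed by 0.55 (SE 0.23), and by 0.31 without the same library.

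Heat shock genes, chaperones that answer to unfolded protein, read lower in both batches in 17 of 22 and higher in none (median −0.35; −0.45 and −0.22); with the scaling from abundant genes 11 were lower. Hspa1a, an inducible Hsp70, stood at 755 and 113 CPM with risperidone and at 1380 and 189 CPM with vehicle. Hsph1, its nucleotide exchange partner, stood at 505 and 203 CPM with risperidone and at 799 and 315 CPM with vehicle. Batch 1 exceeded batch 2 in both groups, so the groups overlapped while risperidone was lower inside each batch. The difference was −0.82 (SE 0.23) for Hspa1a, called by DESeq2 at 0.0302 and not by edgeR (adjusted p 0.471), and −0.65 (SE 0.23) for Hsph1. Reads of Hspa1a and its near copy Hspa1b may be shared; Hspa1b differed by −0.68 (SE 0.24). Without vehicle replicate 1 the list median was −0.18.

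Circadian clock genes read lower in both batches in 13 of 20 and higher in none (median −0.28; −0.12 and −0.41), and without risperidone replicate 2 the median was −0.04. Clock, the partner of Bmal1, stood at 58.7 and 95.4 CPM with risperidone and at 134 and 128 CPM with vehicle (−0.80, SE 0.24). Nfil3, a repressor at D-box elements, stood at 27.6 and 32.5 CPM with risperidone and at 58.9 and 48.7 CPM with vehicle (−0.85, SE 0.27). Neither gene's groups overlapped, and the time of day of tissue collection is not in the labels. Of 21 glucocorticoid-responsive genes 10 read lower in both batches and 3 higher (median −0.11), and 5 and 5 with the scaling from abundant genes. Their share lower, 47.6%, stood against 38.2% of all genes of at least 5 CPM. One member was Klf9, at 18.9 and 21.3 CPM with risperidone and 29.1 and 46.5 CPM with vehicle.

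By their median, homeostatic microglia genes read lower in batch 1 and higher in batch 2. Of 20 microglia markers 4 read lower in both batches, none higher and 16 split, with medians of −0.64 in batch 1 and 0.18 in batch 2. P2ry12, the purine receptor that steers microglial processes, stood at 391 and 319 CPM with risperidone and at 756 and 349 CPM with vehicle. Tmem119, a microglial membrane protein, stood at 59.6 and 46.2 CPM with risperidone and at 120 and 51.6 CPM with vehicle. Cx3cr1, the fractalkine receptor, stood at 391 and 397 CPM with risperidone and at 721 and 395 CPM with vehicle. These 3 were picked by their small p. Their batch 2 differences (P2ry12 −0.13, Tmem119 −0.16, Cx3cr1 0.01) lay below the list's 0.18. In all 3, vehicle batch 1 lay far above the other libraries, which overlapped or were close, and without it the fitted differences were −0.11, −0.11 and −0.01, with a list median of 0.22. Border macrophage genes split the same way: Mrc1, a mannose receptor, stood at 48.9 and 18.6 CPM with risperidone and at 182 and 12.6 CPM with vehicle.

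Members of the microglial activation lists went both ways. Among 20 disease-associated microglia genes 7 read higher and 4 lower in both batches (median −0.02); Spp1, osteopontin, was higher at 39.5 and 6.68 CPM with risperidone and 17.3 and 5.12 CPM with vehicle (0.83; 0.32 without vehicle replicate 1). Of 23 complement genes 7 read higher and 4 lower (median −0.05). Of 28 phagocytosis and lipid-sensing receptors 6 read higher and 9 lower (median −0.24). Among all genes of at least 5 CPM, 18.9% read higher and 38.2% lower in both batches. Of 23 NRF2 antioxidant genes 9 read higher (39.1%) and 5 lower (21.7%) in both batches (median 0.04). With the scaling from abundant genes 13 were higher and 2 lower, against 27.4% and 27.8% of all genes of at least 5 CPM. Txnrd1, thioredoxin reductase, stood at 738 and 525 CPM with risperidone and at 423 and 393 CPM with vehicle (0.60, SE 0.23), with no overlap, and differed by 0.35 without vehicle replicate 1. Proliferation genes read higher in both batches in 12 of 27 and lower in 1 (median 0.16), against 30% and 26.8% of all genes tested. Of the 17 with a mean of at least 5 CPM, 6 read higher in both batches and 0 lower. Among all such genes these shares were 18.9% and 38.2%. Low genes as a whole read higher with risperidone, as did the sensory receptor sum, and the part of that background in this list was not tested. Mki67, a marker of dividing cells, stood at 25.8 and 26.7 CPM with risperidone and at 21 and 12 CPM with vehicle (0.75, SE 0.32; 0.25 without risperidone replicate 2). Erythrocyte genes read lower in both batches in 5 of 8, with the beta-globin gene Hbb-bt at 632 and 151 CPM with risperidone and 1090 and 339 CPM with vehicle, and DESeq2 called it at 0.0433. Nuclear oxidative phosphorylation genes had a median of −0.15 over 63 genes and cytosolic ribosomal protein genes −0.02 over 64.

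**Figure D4:**
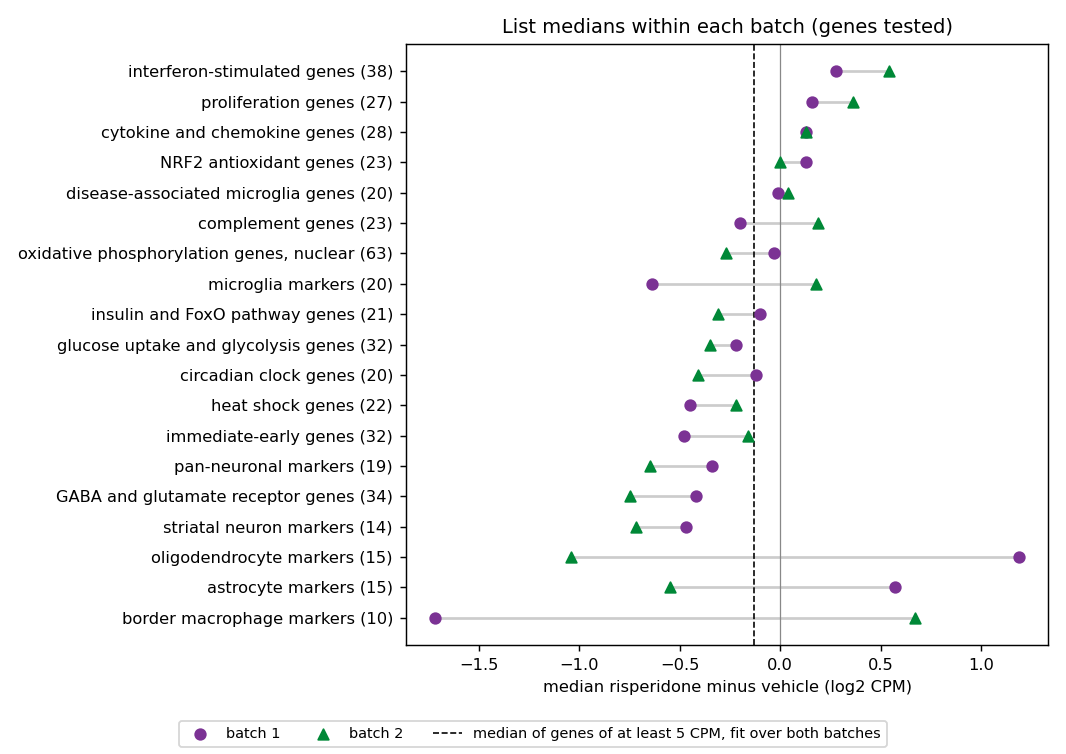
Median risperidone minus vehicle difference (log2 CPM) of 19 gene lists within batch 1 (purple circles) and batch 2 (green triangles), with the number of genes tested in brackets and a dashed line at −0.13, the median of genes of at least 5 CPM. The interferon list lies right of the line and the neuronal lists left of it in both batches, while microglia, border macrophage, astrocyte and oligodendrocyte markers change side between batches.

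Neuronal transcripts read lower in the microglia fraction with risperidone. Of 34 GABA and glutamate receptor genes, 27 were lower in both batches and none higher, 21 of them at an unadjusted p under 0.05. Among all genes of at least 5 CPM 38.2% read lower in both batches, and 7.56% did so at that p. The median of the receptor genes was −0.57 (−0.42 in batch 1 and −0.75 in batch 2). Of 19 pan-neuronal markers 16 were lower in both batches (median −0.51), and 23 of the receptor genes and 14 of the markers were lower with the scaling from abundant genes. Without risperidone replicate 2 the pan-neuronal median was −0.20. Gria3, an AMPA receptor subunit, stood at 87.7 and 173 CPM with risperidone and at 150 and 329 CPM with vehicle (−0.85, SE 0.23), and Gad2, which makes GABA, at 25.6 and 46.3 CPM with risperidone and 40.6 and 86.5 CPM with vehicle (−0.78, SE 0.26). Batch 2 carried more of these RNAs in both groups, so the groups overlapped for both genes, and inside each batch risperidone was the lower library. The part of neuronal RNA carried over in the fraction in these differences was not tested.

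Several of the leading lower genes belong with these. Rgs9 and Pcp4, signalling proteins abundant in striatal neurons, stood at 20.1 and 42.1 CPM and at 17.8 and 39.6 CPM with risperidone, against 50 and 102 CPM and 44.7 and 88.9 CPM with vehicle. Penk, the precursor of enkephalin, stood at 32.4 and 74 CPM with risperidone and at 55.8 and 188 CPM with vehicle (−1.08, SE 0.25). Icam5, a telencephalic neuronal adhesion protein, stood at 27.2 and 52.6 CPM with risperidone and at 59.6 and 99.7 CPM with vehicle. Mir124a-1hg, the host of the neuronal miR-124, stood at 84.3 and 117 CPM with risperidone and at 135 and 305 CPM with vehicle (−1.05, SE 0.24). Except for Penk, the risperidone libraries of these genes lay below both vehicle libraries, and the same held for Smarca1 (−1.22) and the small nucleolar RNA host gene Snhg11 (−0.97). Igsf5 overlaps Pcp4 on the same strand and reads were counted for every gene they overlap, so its near-equal counts (98 and 277 with risperidone, 276 and 651 with vehicle, against 100 and 285, and 303 and 711, for Pcp4) cannot be told apart from those of Pcp4. Without vehicle replicate 2 the difference was −0.69 for Mir124a-1hg and −0.64 for Snhg11. A list of 14 striatal neuron markers, put together after values were seen, had 10 lower in both batches (median −0.57). DESeq2 called Penk and Mir124a-1hg, both at 0.00761, and Gria3 at 0.0177, as well as Arpp21, Scg2 and Syt1, which are also abundant in neurons and of which Arpp21 and Scg2 were chosen after their values were seen. Of the 1282 genes of at least 5 CPM that read lower in both batches at an unadjusted p under 0.05, 52.4% had a higher mean in the vehicle-treated neuron libraries than in the vehicle-treated microglia libraries, against 10.8% of the 461 higher and 37.1% of all genes of at least 5 CPM. The same was true of 24 of the 42 genes DESeq2 called lower, which were all abundant. The vehicle-treated microglia libraries had also entered the choice of these genes, and each fraction was scaled on its own. The 1282 lower genes had a median level of 42.5 CPM and the 461 higher genes of 7.97 CPM. These shares are therefore no test of where the RNA came from.

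The gene with the smallest DESeq2 p has neither a name nor a type of RNA in the annotation used, so what it encodes was not established. ENSMUSG00000119584.1 (1849 exonic bases on chromosome 17, 40157244 to 40159092, GRCm39) stood at 6620 and 6240 CPM with risperidone and at 13100 and 12900 CPM with vehicle. The 2 libraries of each group lay close together and the groups did not overlap (−1.02, SE 0.21; edgeR adjusted p 0.273, DESeq2 adjusted p 0.000427). The long noncoding RNA Gm36264 had the smallest edgeR p, at 3.91 and 3.34 CPM with risperidone and 15.8 and 21.9 CPM with vehicle (−2.37, SE 0.39, adjusted p 0.112; no adjusted p from DESeq2). Gm36264 was far higher in vehicle neurons: it stood at 3.51 and 4.02 CPM with risperidone and at 1040 and 218 CPM with vehicle in the neuron libraries, and at 46.2 and 6.9 CPM with risperidone and 13.7 and 5.16 CPM with vehicle in the astrocyte libraries. Its microglia difference minus that in neurons was 4.37 (SE 1.09, unadjusted p 0.00059) and minus that in astrocytes −3.93 (SE 1.08, unadjusted p 0.00147), neither called by edgeR. The part of neuronal RNA in the microglia difference of Gm36264 was not tested.

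Receptors that risperidone binds were detected at modest levels in the microglia fraction. The 21 dopamine, serotonin, adrenergic and histamine receptor genes tested lay between 0.59 and 29.7 CPM. Of them 16 had a mean of at least 5 CPM, as did 16951 of the 32846 genes tested. Of the 21, 9 read lower in both batches (42.9%) and 4 higher (19%). The shares were 38.2% and 18.9% among all genes of at least 5 CPM, and 26.8% and 30% among all genes tested. With the scaling from abundant genes 7 receptors were lower and 8 higher. Drd1, the dopamine D1 receptor, stood at 6.76 and 9.46 CPM with risperidone and at 10.5 and 26 CPM with vehicle (−1.05, SE 0.38; −0.52 without risperidone replicate 2). Htr2c, a serotonin receptor, stood at 8.01 and 16.8 CPM with risperidone and at 14.8 and 29.7 CPM with vehicle (−0.84, SE 0.32). Drd2, the main target, stood at 6.94 and 9.46 CPM with risperidone and at 4.87 and 10.5 CPM with vehicle, which overlapped. Htr2a stood at 6.94 and 19.7 CPM with risperidone and at 11.2 and 26 CPM with vehicle, and Htr7 at 7.65 and 9.6 CPM with risperidone and 4.13 and 5.37 CPM with vehicle. Drd1 and Htr2c were the 2 of 21 with an unadjusted edgeR p under 0.05, a threshold that 8.23% of all genes tested passed. Neither was called by edgeR (adjusted p 0.565 for both).

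Most of the leading higher genes outside the interferon group were low. Chrng, a subunit of the fetal muscle acetylcholine receptor, stood at 9.61 and 12.8 CPM with risperidone and at 3.39 and 2 CPM with vehicle (2.11, SE 0.48). Psmb11, a proteasome subunit of the thymus, stood at 13 and 12.4 CPM with risperidone and at 3.98 and 3.37 CPM with vehicle (1.78, SE 0.42). Slc6a4, the serotonin transporter, stood at 9.78 and 8.76 CPM with risperidone and at 2.36 and 3.12 CPM with vehicle (1.75, SE 0.47). The groups did not overlap for any of these, and none was called by edgeR (adjusted p 0.336 to 0.450). DESeq2 gave no adjusted p for any of them. They moved with the sensory receptor sum, which was higher in both risperidone libraries, and the 461 higher genes had a median level of 7.97 CPM against 42.5 CPM for the 1282 lower. The part of that background in the higher genes was not tested. Abcc6, a transporter, Ccdc33 and Kirrel3os, which lies antisense to Kirrel3 and cannot be told from it in unstranded counts, showed the same layout at means under 20 CPM. Jag1, a Notch ligand, and Col18a1, a basement membrane collagen, did not overlap between groups either. Jag1 stood at 43.9 and 40.2 CPM with risperidone and at 25.5 and 15.1 CPM with vehicle (1.12, SE 0.29; 0.68 without risperidone replicate 2), and Col18a1 at 19 and 20.7 CPM with risperidone and 6.93 and 9.25 CPM with vehicle. Myh11, a smooth muscle myosin, was also higher (1.00, SE 0.32).

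Whether the risperidone difference in microglia departed from that in the astrocyte or the neuron fraction of the same pools was tested with an interaction term over all 18 libraries. The edgeR test called 0 of 37310 genes for either contrast (percent called 0), with 275 genes (0.737%) against astrocytes and 386 (1.03%) against neurons at an unadjusted p under 0.05; DESeq2 called 0 against astrocytes and 1 against neurons. Of the 24 leading genes, 1 had an unadjusted p under 0.05 against astrocytes (Psmb11) and 1 against neurons (Jag1). These genes, and Slc2a3 and Gm36264, were picked by their microglia difference, which is part of each interaction. Their interaction p-values are therefore not independent of that choice. Txnip was lower with risperidone in the other fractions too, at 17.1 and 20.7 CPM with risperidone against 31.8 and 31.1 CPM with vehicle in astrocytes, and at 5.01 and 8.30 CPM against 15 and 26.8 CPM in neurons. Its microglia difference minus that in astrocytes was −0.70 (SE 0.63) and minus that in neurons 0.22 (SE 0.64). Slc2a3 in neurons stood at 100 and 104 CPM with risperidone and at 54 and 88 CPM with vehicle, and the microglia difference minus that in neurons was −1.34 (SE 0.60, unadjusted p 0.0358). Jag1 in neurons stood at 11.2 and 7.59 CPM with risperidone and at 11.3 and 14.7 CPM with vehicle (1.49, SE 0.62, unadjusted p 0.026). Oasl1 differed in direction between the batches of both other fractions, and in astrocytes it stood at 7.2 and 23.7 CPM with risperidone and 2.59 and 48.8 CPM with vehicle. With no low-count filter edgeR called 1 gene against astrocytes and 3 against neurons. With 2 pools a group the absence of calls does not show that microglia responded like the other fractions.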

How the data were processed

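Bulk RNA-seq counts of 18 immunopanned libraries (microglia, astrocytes and neurons, 3 treatments, 2 batches) were used. The authors deposited 1 table of counts per library, raw whole-number counts per gene, made with featureCounts 2.0.8 on GRCm39 per the file headers: reads of both mates over exons by gene identifier, with overlapping genes each counted (-O) and no strand option. Counts of overlapping, antisense or near-identical genes are therefore uncertain, and single reads rather than pairs were counted. Reads were checked with FastQC per the submitters' processing notes; no aligner is named in the labels or headers. Per the labels' protocols, 20 ng of total RNA entered each library and ribosomal RNA was depleted. The 37 mitochondrial features held 0 counts. A combined table of the same libraries was not used.

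Counts were tested with edgeR 4.0.16 in R 4.3.3 (filterByExpr, TMM, estimateDisp, glmQLFit, glmQLFTest) on the 6 microglia libraries, with treatment and batch as terms. Clozapine libraries shared the estimate of the spread, which left 2 residual degrees of freedom; the biological coefficient of variation was 0.293. Genes were called at a Benjamini-Hochberg adjusted p under 0.05 over all genes tested. Interactions used all 18 libraries with pool as block. An exact permutation test of 2 against 2 cannot go below p = 0.333. SE is the log2 difference over the root of F, and within-batch differences used log2 CPM with a prior count of 2. The labels call the replicate number a batch, and deviations of same-numbered libraries correlated at 0.36 to 0.42 in 16951 genes, so the numbers pair the libraries. Symbols came from GENCODE vM21, which named 52029 of 56953 identifiers (96.2% of counts). The procedure was checked on simulated counts. Alternatives were RLE factors, DESeq2 1.42.0, other filters, other sets of libraries, no block and leaving out each library.

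Genes were named by rule: up to 12 per direction with the smallest p among those of unadjusted p under 0.05, like direction in both batches and a mean of at least 5 CPM (predicted genes and pseudogenes skipped), up to 4 per list, and the receptors. One gene with only a clone-based name is not printed, nor is every gene the rule took. Ifit2, Mx2, Stat2, Gm36264, Rgs2, Arpp21, Scg2 and ENSMUSG00000119584.1 lie outside the rule and were picked after values were seen. The comparison and its gene lists were chosen with earlier results of these data known. Replicates are pools of animals. The p-values and intervals rest on the spread between pools after it was shared over genes. That sharing turned the 2 residual degrees of freedom into a median total of 24.1.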

Additional observations from a re-analysis of the deposited data

How the results depend on the processing

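The count of called genes for risperidone against vehicle was 0 with the batch block and 0 with no replicate block (1407 at an unadjusted p under 0.05), with RLE factors, with all 18 libraries in 1 fit, with a mean of at least 5 CPM and with TMM factors from such genes. It was 43 by DESeq2, 47 with no low-count filter and 1 with only the 4 risperidone and vehicle libraries. Leaving out each microglia library in turn gave 3 to 96 calls: 96 without vehicle replicate 2, 25 without vehicle replicate 1, 12 without risperidone replicate 2, 7 without risperidone replicate 1, 4 without clozapine replicate 1 and 3 without clozapine replicate 2. A lone library is then assumed to vary like the other groups. The interaction with astrocytes gave 1 call with no low-count filter, and that with neurons gave 1 by DESeq2, 3 with no low-count filter and 0 to 1 with a library left out. The cause of these differences was not tested. Leaving out 1 library moved the difference of 60 of 110 genes examined by over 1.5 times, most often without vehicle replicate 1 (33 genes). The sign turned for Mrc1 (−2.11 to 0.80), Hbb-bs (−1.74 to 0.11) and Drd2 (−0.26 to 0.64) over the libraries left out, in Mrc1 and Hbb-bs without vehicle replicate 1. With 2 pools a group, an effect seen in 1 library and a drug effect cannot be told apart, and depth of 5283809 to 8166085 counts leaves genes under 5 CPM imprecise.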
